A study of Mus musculus with 12 samples.

Results

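Imprinted genes are expressed from the copy inherited from one parent, and 37 of them were followed here in the hand and foot plates (autopods) of wild-type mouse embryos at stage E12.5. RNA came from forelimb samples 11, 13 and 25 and from hindlimb samples 12, 14 and 26. Each of the 6 was read on 2 Affymetrix arrays, MOE430A and MOE430B, which carry different probe sets and gave 12 arrays. A probe set counted as imprinted when its annotation named exactly 1 of the 37 genes, which held for 63 of 22690 probe sets on MOE430A and 28 of 22575 on MOE430B (30 of 12394 and 13 of 9611 genes). They covered 34 genes. H19, Rtl1 and Zrsr1 had none under this rule. It left out 8 probe sets that name a listed gene together with another gene (5 on A, 3 on B), which were H19 with Mir675, Snrpn with Snurf, and Igf2r with Airn, so H19 was not analysed here and Snrpn only in part. Nothing in the labels says whether the samples were separate embryos, litters or pools, so p-values cover no more than the spread among the samples at hand, which may be technical. Both limbs are wild type, and the labels give no treatment.

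Imprinting is set in the germ line, where DNA methylation is laid down at control regions on the maternal or the paternal chromosome. Those marks survive fertilisation and restrict the genes nearby to a single active parental copy. Such genes often lie several in a cluster together with a long noncoding RNA. Many paternally expressed genes promote embryonic growth and many maternally expressed ones restrain it, and the midgestation embryo is where a large part of them is most active. The arrays read total transcript and do not separate the 2 parental copies. By the copy known to be active, 13 genes were classed as maternally expressed (H19, Igf2r, Meg3, Rian, Mirg, Cdkn1c, Kcnq1, Phlda2, Slc22a18, Ascl2, Zim1, Asb4 and Ppp1r9a). Another 18 were classed as paternally expressed (Igf2, Dlk1, Rtl1, Peg3, Usp29, Mest, Peg10, Sgce, Plagl1, Zdbf2, Ndn, Snrpn, Magel2, Mkrn3, Nnat, Impact, Rasgrf1 and Zrsr1). For the other 6 (Grb10, Gnas, Ube3a, Copg2, Calcr and Inpp5f) the active copy depends on the tissue or the isoform, or only a single isoform is imprinted.

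Signals are MAS5.0 values brought to a 2% trimmed mean of 500 on every array, called scaled signals. Testing required a scaled signal of 100 or more in 3 or more samples. This left 45 of 63 imprinted probe sets on A and 24 of 28 on B, of 26 genes. Differences are log2 hindlimb minus forelimb of (signal + 32), with n = 3 samples per limb. They were fitted by limma over all tested probe sets of a design and adjusted by Benjamini-Hochberg with a threshold of 0.05. Forelimb 11 is placed on the A array by its title, since its source label gives no limb. Its Tbx5 signal, a forelimb factor, was 1145.1, where the other forelimb samples had 1325.5 and 1380.9 and the hindlimb samples 29.3 to 173.8. The limb mesenchyme markers Prrx1, Msx1, Hoxd13 (1917.7 to 2935.4) and Hoxa13 (265.8 to 610.5) had signals above 100 in all samples on the A array. Between any 2 arrays the log2 values correlated across probe sets with r of 0.963 to 0.98 on the A design and 0.902 to 0.923 on the B design.

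No imprinted gene passed the threshold. Of the tested imprinted probe sets 0 of 45 on A and 0 of 24 on B had a limma adjusted p under 0.05, where the share over all tested probe sets was 0.0326% (5 probe sets) and 0.0117% (2). At an unadjusted p under 0.05 there were 3 on A (6.67%) and 1 on B (4.17%), against 5.54% of all tested probe sets on each. The limbs did not overlap on 4 imprinted probe sets of A (8.89%) and 1 of B (4.17%), against 11% and 10.9% of all. These shares lie near the background or under it. The genes behind them were Asb4 (2 probe sets), Peg3 and Cdkn1c on A and Zdbf2 on B.

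**Figure D1:**
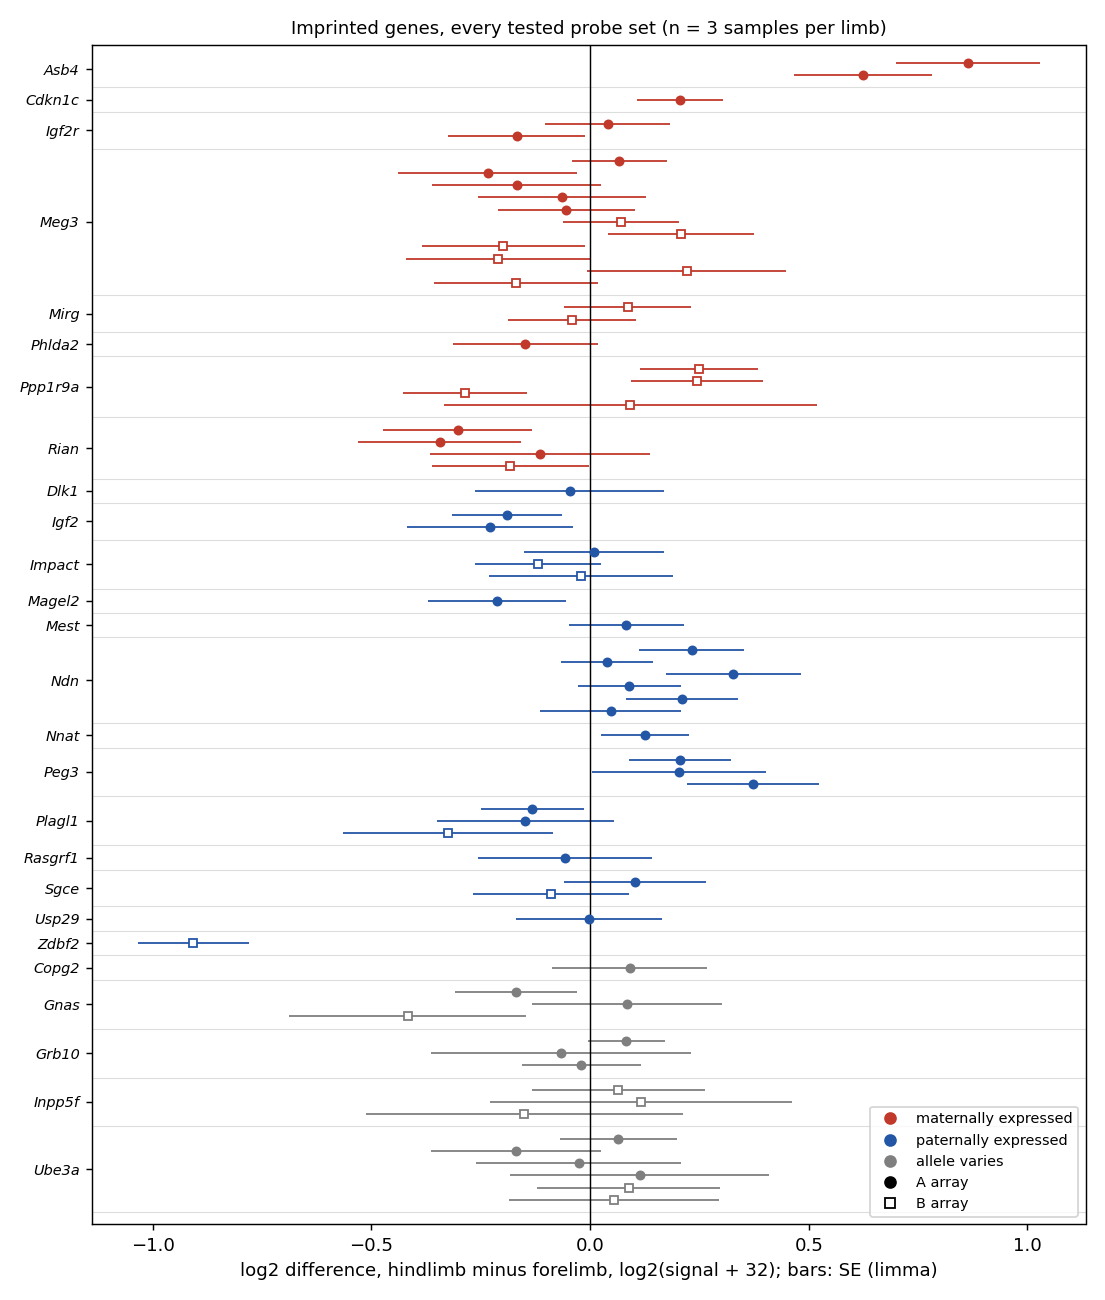
Log2 difference between hindlimb and forelimb (x axis, hindlimb minus forelimb) of each tested probe set of 26 imprinted genes (y axis), with bars of 1 limma standard error; filled circles are A array and open squares B array probe sets, coloured by the copy known to be expressed. Most points lie within 0.25 of 0, while both Asb4 probe sets stand to the right (0.87 and 0.62) and Zdbf2 to the left (-0.91).

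Zdbf2, a paternally expressed zinc finger gene, had the smallest p of the list and stood 4th by p among the 17145 probe sets tested on the B array. Its 1 probe set had scaled signals of 1969, 2091.9 and 2171.9 in forelimb 11, 13 and 25, and of 1077, 1011.3 and 1192.7 in hindlimb 12, 14 and 26. Every hindlimb sample lay below every forelimb sample, with a gap far wider than the range within either limb. The difference was -0.91 ± 0.13 (SE, 95% interval -1.19 to -0.63), with a limma adjusted p of 0.0942. Over the alternative settings it ranged from -0.97 to -0.80 with adjusted p of 0.0714 to 0.571, and without forelimb 11 it was -0.95. Zdbf2 has a single probe set, so no second one could be set beside it. The Zdbf2 probe set was already among the leading B array values when this list was drawn up.

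Asb4, a maternally expressed gene, encodes the substrate-binding part of a ubiquitin ligase and is known from embryonic blood vessels. It had the largest positive differences of the list, and both of its probe sets, on the A array, went the same way. On its brighter probe set the scaled signals were 653.8, 793.2 and 749.2 in forelimb 11, 13 and 25, and 1045.8, 1567 and 1516.6 in hindlimb 12, 14 and 26. On the dimmer one they were 286.1, 325 and 330.2 in the forelimb and 407.9, 600.1 and 510 in the hindlimb. The limbs did not overlap on either, forelimb 11 was the lowest and hindlimb 14 the highest sample on both, and hindlimb 12 was the hindlimb sample nearest to the forelimb. The differences were 0.87 ± 0.17 (SE, 95% interval 0.50 to 1.23, limma adjusted p = 0.193) and 0.62 ± 0.16 (0.28 to 0.97, adjusted p = 0.496), at ranks 24 and 74 by p among 15338 probe sets. Without hindlimb 12 the first passed the threshold (1.05, adjusted p = 0.038). Under every other setting neither did, and their ranges were 0.76 to 1.05 and 0.50 to 0.76. Without forelimb 11 they were 0.79 and 0.57.

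**Figure D2:**
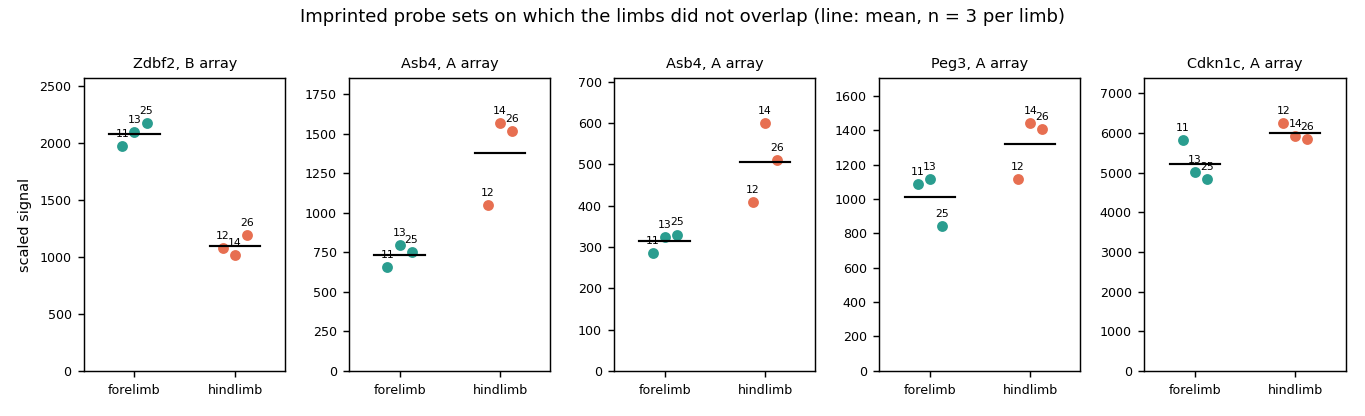
Scaled MAS5.0 signal (y axis, linear from 0) in each sample for the 5 imprinted probe sets without overlap between the limbs; points carry the sample number and lines mark the mean of 3 samples. Zdbf2, on the B array, has its lowest forelimb sample at 1969 and its highest hindlimb sample at 1192.7, and on the A array the limbs come close for Peg3 (1113 and 1114.5) and Cdkn1c (5831.8 and 5853).

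The sequence before the start sites of these 2 genes is shown because they gave the widest differences and differ in CpG content, the dinucleotide at which imprints are methylated. RefSeq start sites of GRCm38.p6 gave windows for 30 of the 37 genes (47 windows). The 250 bases before each start are printed 5′ to 3′ on the strand of the gene, with capitals marking TGCCGC or its reverse complement GCGGCA, the core hexamer that the imprint-keeping protein ZFP57 binds when methylated.
Zdbf2 start 1, chr1:63200108-63200357, plus strand: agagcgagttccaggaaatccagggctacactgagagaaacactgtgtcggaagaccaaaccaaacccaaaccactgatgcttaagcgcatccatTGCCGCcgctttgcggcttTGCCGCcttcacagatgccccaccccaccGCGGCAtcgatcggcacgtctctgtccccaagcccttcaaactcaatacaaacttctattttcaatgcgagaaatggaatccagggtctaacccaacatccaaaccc
Zdbf2 start 2, chr1:63273019-63273268, plus strand: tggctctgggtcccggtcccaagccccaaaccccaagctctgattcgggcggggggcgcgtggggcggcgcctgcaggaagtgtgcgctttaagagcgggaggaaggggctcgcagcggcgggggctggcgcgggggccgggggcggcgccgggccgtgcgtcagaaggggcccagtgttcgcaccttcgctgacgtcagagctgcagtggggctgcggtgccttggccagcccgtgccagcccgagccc
Asb4 start 1, chr6:5383136-5383385, plus strand: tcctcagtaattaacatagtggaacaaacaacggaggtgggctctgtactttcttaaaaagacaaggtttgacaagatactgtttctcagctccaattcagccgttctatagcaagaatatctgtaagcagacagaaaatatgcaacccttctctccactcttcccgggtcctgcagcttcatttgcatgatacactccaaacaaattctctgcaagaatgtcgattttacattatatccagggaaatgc
Asb4 start 2, chr6:5390160-5390409, plus strand: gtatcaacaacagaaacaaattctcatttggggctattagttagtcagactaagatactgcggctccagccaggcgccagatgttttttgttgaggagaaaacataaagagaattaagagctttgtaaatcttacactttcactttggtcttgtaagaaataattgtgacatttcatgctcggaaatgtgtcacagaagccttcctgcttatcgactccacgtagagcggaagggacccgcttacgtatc

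The 2 Zdbf2 windows held 13 and 26 CpG dinucleotides and the 2 Asb4 windows 4 and 8, where the median was 6 over 32851 windows of all genes and 10 over the 47 imprinted windows. The hexamer, counted on both strands, occurred 3 times before the first Zdbf2 start and not before the others. At least 1 copy stood in 8 of the 47 imprinted windows (17%), of 7 genes, and in 8.68% of all windows, and 3 or more copies in 0.0731% of all. The 8 include Mest windows that overlap each other. The hexamer holds a CpG and the imprinted windows have more CpG, so the 17% and the 8.68% are not a like comparison. These counts describe the letters of the windows, and no methylation or protein binding was measured.

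The genes that neighbour Asb4 in its imprinted cluster gave smaller differences, and whether they differ from that of Asb4 was not tested. Sgce, the paternally expressed epsilon-sarcoglycan gene, gave 0.10 ± 0.16 on A and -0.09 ± 0.18 on B. Its scaled signals were 548.5, 383.2 and 363.3 in the forelimb and 441, 472.3 and 463 in the hindlimb on the A array, with the hindlimb samples inside the forelimb range. Ppp1r9a, which encodes the actin-binding protein neurabin, had 4 tested probe sets on the B array. They gave 0.25, 0.24, 0.09 and -0.29 with standard errors of 0.14, 0.15, 0.43 and 0.14 and limma adjusted p of 0.904 to 0.986, so its probe sets did not point one way. Peg10, a gene derived from a retrotransposon that the placenta needs, and Calcr, the calcitonin receptor, were below the filter. Peg10 signals were 21.9 to 54.8 over all samples. Calcr signals were 31.6 to 120.1.

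Among the growth regulators, Igf2, the fetal insulin-like growth factor, had scaled signals of 7235.5, 8426.6 and 7941.2 in forelimb 11, 13 and 25 and of 5914, 8419.6 and 6543.8 in hindlimb 12, 14 and 26 on its bright probe set. Hindlimb 14 was level with the highest forelimb sample and the other 2 hindlimb samples lay below all forelimb samples. The difference was -0.19 ± 0.13 (95% interval -0.47 to 0.09), and the dim Igf2 probe set gave -0.23 ± 0.19. Igf2r, the receptor that carries IGF2 to the lysosome, gave 0.04 ± 0.14 and -0.17 ± 0.16. Grb10, an adaptor that restrains signalling from the insulin and IGF receptors, gave 0.08 ± 0.09, -0.07 ± 0.30 and -0.02 ± 0.14. On its bright probe set, the first of these, the 6 samples had 8143.8 to 9724.2, and the 95% interval was -0.11 to 0.28.

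Cdkn1c encodes the cyclin-dependent kinase inhibitor p57 and is known to slow growth of the embryo. Its scaled signals were 5831.8, 5003.4 and 4828.6 in forelimb 11, 13 and 25 and 6248.5, 5914.4 and 5853 in hindlimb 12, 14 and 26. The limbs did not overlap, but forelimb 11 and hindlimb 26 were nearly level. The difference was 0.21 ± 0.10 (95% interval -0.01 to 0.42, limma adjusted p = 0.923), and 0.29 without forelimb 11. Phlda2, its neighbour and a brake on placental growth, had 157.8, 147.2 and 153 in the forelimb and 116.8, 152.1 and 136.7 in the hindlimb, with a difference of -0.15 ± 0.17 and overlapping limbs. The other members of this cluster, the potassium channel gene Kcnq1, the transporter gene Slc22a18 and the trophoblast factor Ascl2, were below the filter on all of their probe sets. Their signals were 25 to 52.6 for Kcnq1, 7 to 80.4 for Slc22a18 and 1.4 to 34.3 for Ascl2.

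Plagl1, a paternally expressed zinc finger factor that regulates other imprinted genes, had negative differences on all 3 probe sets. They were -0.13 ± 0.12 and -0.15 ± 0.20 on A and -0.32 ± 0.24 on B, each with overlapping limbs. Nnat, which encodes the small membrane protein neuronatin, gave 0.13 ± 0.10, with signals of 6068.7 to 6358.2 in the forelimb and 6327.6 to 7833.8 in the hindlimb. Hindlimb 14 was the high sample, hindlimb 26 was just above the forelimb range and hindlimb 12 inside it. Gnas, the stimulatory G protein subunit gene, gave -0.17 ± 0.14 and 0.09 ± 0.22 on A and -0.42 ± 0.27 on B. Its other 2 probe sets had signals of 4.1 to 59.3 and were not tested.

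In the cluster of Dlk1 and Meg3, the paternally expressed Dlk1 encodes a membrane protein of the Notch ligand type, and the maternally expressed genes are long noncoding RNAs. Dlk1 had scaled signals of 275.1, 315.1 and 375 in forelimb 11, 13 and 25 and of 215.8, 434.2 and 308.8 in hindlimb 12, 14 and 26. The hindlimb samples spread on both sides of the forelimb, and the difference was -0.05 ± 0.22. Without hindlimb 12 it was 0.18. A second Dlk1 probe set, on the B array, was below the filter, with 222.1 in hindlimb 26 and 36.4 to 83.6 elsewhere. Meg3, a noncoding RNA of the cluster, had 3295.9, 3480.7 and 2804.2 in the forelimb on its bright A probe set. The hindlimb had 3276.9, 3336.1 and 3390.7 there. That probe set gave 0.07 ± 0.11 (95% interval -0.17 to 0.31). The 11 tested Meg3 probe sets of both designs gave 4 positive and 7 negative differences, from -0.23 to 0.22, with overlapping limbs on each.

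Rian, the host transcript of many small nucleolar RNAs in this cluster, was the noncoding member whose probe sets went one way. Its 4 differences were -0.30 ± 0.17, -0.34 ± 0.19 and -0.12 ± 0.25 on A and -0.18 ± 0.18 on B, and the limbs overlapped on each. On the first of these probe sets the signals were 488.4, 357.2 and 425.3 in forelimb 11, 13 and 25 and 390.7, 268.6 and 356.2 in hindlimb 12, 14 and 26. Hindlimb 14 was the lowest of the 6 samples on all 4 Rian probe sets. Without it the differences were -0.16, -0.25, 0.11 and -0.03. Mirg, a host transcript of microRNAs measured on the B array, had 1409.8, 1267.7 and 1238.4 in the forelimb and 1641.9, 1284.8 and 1258.4 in the hindlimb on its bright probe set. Its 2 probe sets gave 0.09 ± 0.15 and -0.04 ± 0.15.

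**Figure D3:**
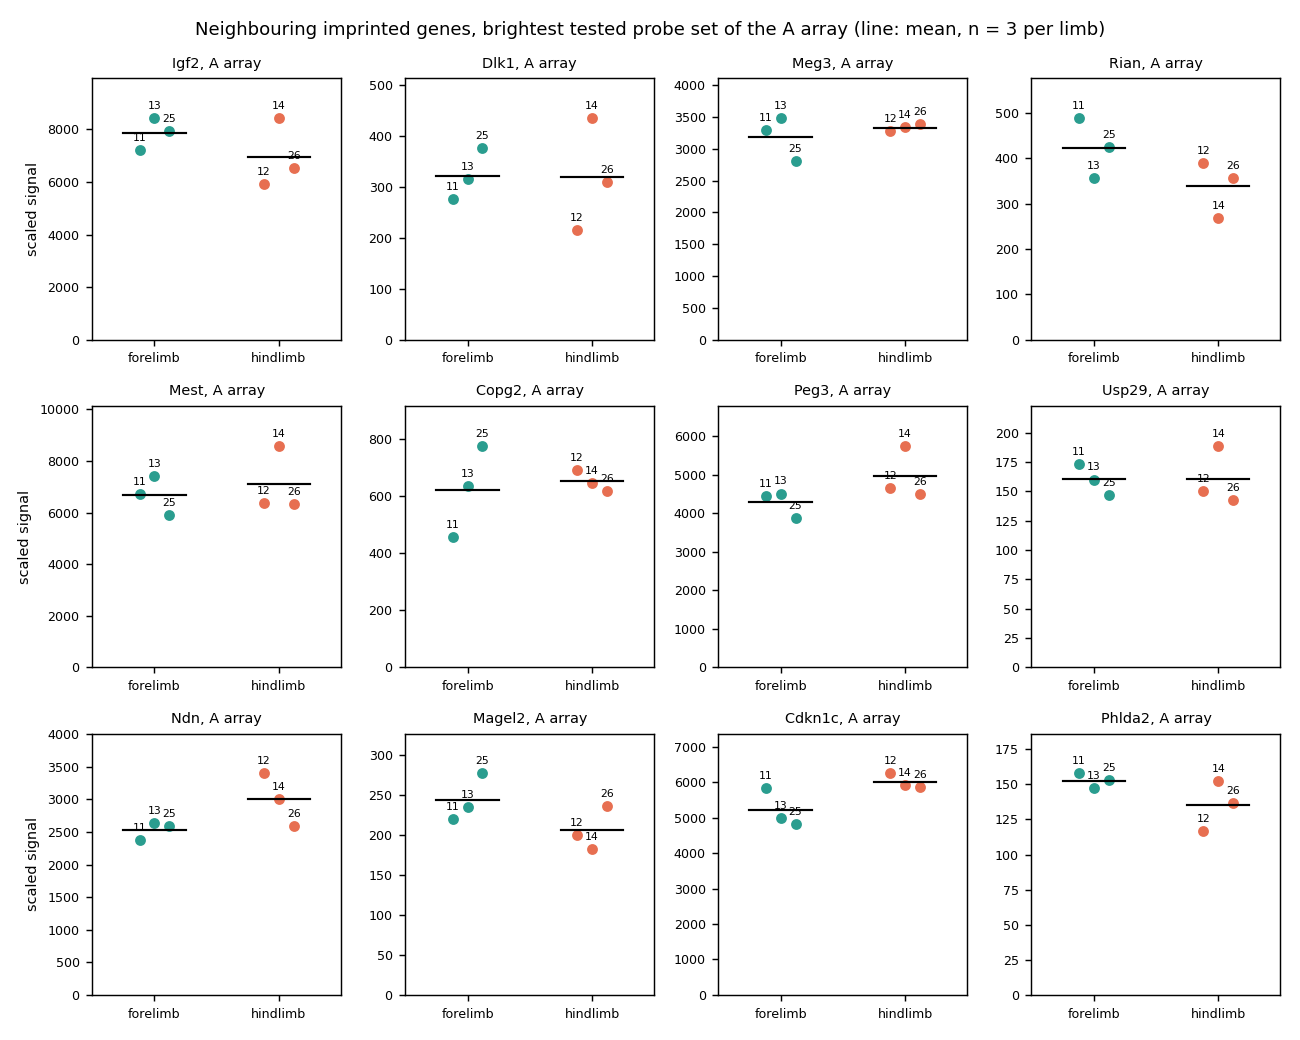
Scaled MAS5.0 signal (y axis, linear from 0) in each sample for neighbouring imprinted genes on the brightest tested A array probe set; points carry the sample number and lines mark the mean of 3 samples. Limbs overlap in every panel other than Cdkn1c (difference 0.21), and hindlimb 14 is the highest hindlimb sample for Igf2, Dlk1, Mest, Peg3, Usp29 and Phlda2.

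Peg3 and Usp29 are transcribed away from each other from a shared start region. Peg3 encodes a large zinc finger protein with a role in growth and maternal care, and Usp29 a member of the ubiquitin protease family. The bases between their RefSeq starts in GRCm38.p6 are given on the plus strand, with each CpG in capitals.
Peg3 and Usp29 starts, chr7:6730420-6730582, plus strand: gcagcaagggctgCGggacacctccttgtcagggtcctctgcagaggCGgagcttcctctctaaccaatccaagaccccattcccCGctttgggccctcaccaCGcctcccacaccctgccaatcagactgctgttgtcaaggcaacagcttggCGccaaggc

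The stretch is 163 bases long and holds 5 CpG. Peg3 had positive differences on its 3 tested probe sets, 0.21 ± 0.12, 0.20 ± 0.20 and 0.37 ± 0.15. On the first, the brightest, the signals were 4463.4, 4517.3 and 3889.3 in forelimb 11, 13 and 25 and 4666.1, 5755.3 and 4495.6 in hindlimb 12, 14 and 26, with hindlimb 26 inside the forelimb range. On the last of these the signals were 1086.5, 1113 and 841 in forelimb 11, 13 and 25 and 1114.5, 1441.1 and 1407.2 in hindlimb 12, 14 and 26. The limbs parted by the small gap between forelimb 13 and hindlimb 12 (limma adjusted p = 0.828, unadjusted p = 0.0316). Sample order differed between the probe sets. Hindlimb 14 was the highest sample on 2 of them and the lowest on the other, shown for this reason after its values were seen, where the signals were 4201.9, 3400.7 and 3197.7 in the forelimb and 5356.8, 2873.8 and 4536 in the hindlimb. The tested Usp29 probe set had 173.5, 160.2 and 147.1 in the forelimb and 150.2, 188.9 and 142.8 in the hindlimb, with a difference of -0.003 ± 0.167. Zim1, the maternally expressed zinc finger gene next to Peg3, was below the filter with 38.8 to 67.3.

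Mest, a paternally expressed gene of the hydrolase family, had 6708.2, 7405.7 and 5891.3 in forelimb 11, 13 and 25 and 6388.9, 8586.1 and 6349 in hindlimb 12, 14 and 26. The difference was 0.08 ± 0.13, and without hindlimb 14 it was -0.06. Its neighbour Copg2, a coatomer subunit gene, had 457.3, 636.8 and 777.5 in the forelimb and 691.4, 646.9 and 619.4 in the hindlimb, with all hindlimb samples inside the forelimb range. Its difference was 0.09 ± 0.18, and without forelimb 11 it was -0.11.

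In the cluster of Ndn and Snrpn, the human counterpart of which is lost in Prader-Willi syndrome, Ndn encodes necdin, a growth-restraining protein of the MAGE family. All 6 tested Ndn probe sets had positive differences, from 0.04 ± 0.11 to 0.33 ± 0.16, and the limbs overlapped on each. On the brightest the signals were 2373.4, 2640.5 and 2598 in forelimb 11, 13 and 25 and 3397.1, 3011.8 and 2598.1 in hindlimb 12, 14 and 26, so that hindlimb 26 was level with the forelimb. Forelimb 11 was the lowest sample on 4 of the 6. The differences of 2 of them (0.04 and 0.05) turned negative in 1 alternative each. Magel2, another MAGE gene, had 219.1, 234.9 and 276.5 in the forelimb and 199.5, 182.2 and 235.6 in the hindlimb, a difference of -0.21 ± 0.16 with overlapping limbs. Mkrn3, a RING finger gene, was below the filter with 58.8 to 98, as was the 1 probe set naming Snrpn alone (8.3 to 21.3), while those naming Snrpn with Snurf were not analysed here. Ube3a, a ubiquitin ligase gene imprinted in neurons, had 6 tested probe sets with differences of -0.17 to 0.11, and forelimb 13 was the lowest sample on 5 of them.

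The remaining genes gave differences between -0.15 and 0.12. Impact, a regulator of translation under stress, gave 0.01 ± 0.16 on A and -0.12 ± 0.14 and -0.02 ± 0.21 on B. Inpp5f, a phosphoinositide phosphatase gene, gave 0.07 ± 0.20, 0.12 ± 0.35 and -0.15 ± 0.36 on the B array. Rasgrf1, a Ras exchange factor gene, gave -0.06 ± 0.20 on its 1 tested probe set, and its other 2 probe sets had 1.4 to 50.1. The sign of the tested Rasgrf1 probe set turned under a change of scaling. The same held for 1 probe set each of Impact (-0.02), Usp29 (-0.003) and Ube3a (-0.03).

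**Figure D4:**
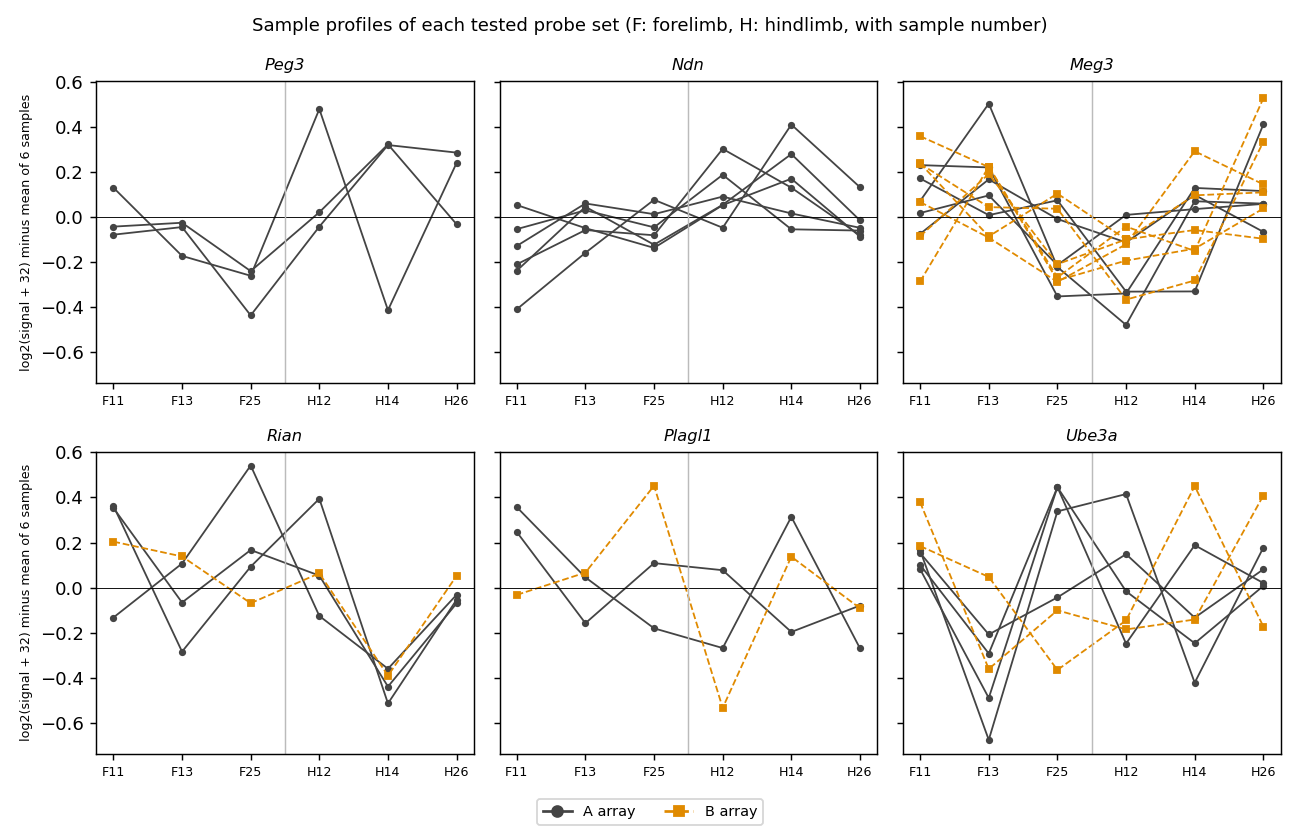
Deviation of log2(signal + 32) from the mean of the 6 samples (y axis) in each forelimb (F) and hindlimb (H) sample (x axis, with sample number) for every tested probe set of 6 imprinted genes; each line joins the values of 1 probe set, solid for the A and dashed for the B array. Rian is lowest in hindlimb 14 on all 4 probe sets and Ube3a lowest in forelimb 13 on 5 of 6, while the Peg3 probe sets disagree on hindlimb 14.

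Probe sets of one gene pointed the same way for 6 of the 16 imprinted genes with at least 2 tested probe sets over both designs (Asb4, Igf2, Ndn, Peg3, Plagl1 and Rian). That is 37.5%, against 44.4% of the 6492 genes with at least 2 tested probe sets. By number of tested probe sets, it held for 2 of 5 imprinted genes with 2 (40%, against 56.8% of all), 2 of 6 with 3 (33.3%, against 35.9%) and 2 of 5 with 4 or more (40%, against 19.2%), the last being Ndn and Rian. Probe sets of a gene can overlap in sequence and come from the same RNA, so they are not replicates. Of the 16 genes, the differences of Asb4 alone were past an unadjusted p of 0.05 on more than 1 probe set.

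Maternally and paternally expressed genes were each found on both sides of 0 on the A array. There, 5 of 14 maternally expressed probe sets were higher in hindlimb (median difference -0.09, 6 genes), 13 of 21 paternally expressed ones (0.05, 12 genes), and 5 of 10 of the others (0.02). The median over all 15338 tested probe sets was -0.01, with 47.8% above 0. On the B array, 7 of 13 maternally expressed (0.07, 4 genes), 0 of 5 paternally expressed (-0.12, 4 genes) and 4 of 6 of the others (0.06) were above 0, where all 17145 had a median of -0.01 and 47.8% above 0. The sign of the maternal median thus differed between the designs, as did that of the paternal one. With the brightest probe set of each gene the maternal median on the A array became 0.05. With all probe sets it turned from -0.09 to 0.02 without forelimb 11, and on the B array the maternal median was negative without forelimb 13, forelimb 25, hindlimb 12 or hindlimb 26 (-0.14 without the last). The 5 paternally expressed probe sets of the B array belong to Zdbf2, Plagl1, Impact and Sgce, and those of Plagl1, Impact and Sgce had p of 0.205 to 0.924 before adjustment.

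With 3 arrays per limb the precision is limited. The 95% interval of the difference lay within a 1.5-fold change in either direction for 30 of the 45 imprinted probe sets on A (66.7%, against 72.4% of all tested) and for 14 of 24 on B (58.3%, against 35%). It lay within a 2-fold change for 44 of 45 (97.8%, against 96.8% of all) and 21 of 24 (87.5%, against 74.1%). Adding 32 before the log shrinks these differences for dim probe sets.

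Genes that set or keep imprints had 0 limma calls as well. Of 16 such genes 12 were tested on the A array, 6 of them higher and 6 lower in hindlimb with a median of 0.00, and 0 had an unadjusted p under 0.05. On the brightest probe set the maintenance methyltransferase Dnmt1 gave 0.21 ± 0.14 and the de novo enzymes Dnmt3a and Dnmt3b -0.14 ± 0.15 and 0.37 ± 0.20. Trim28, a corepressor that acts with ZFP57, gave 0.04 ± 0.16, and Zfp57 itself had 19.6 to 136.2, around the filter. On the B array 7 were tested, with 5 higher, a median of 0.06 and 1 at an unadjusted p under 0.05. That was Smchd1, a chromatin protein of the inactive X and of some imprinted clusters, with 3781, 3333.9 and 3500.2 in the forelimb and 4790.8, 4403.7 and 3880.2 in the hindlimb (0.30 ± 0.12, limma adjusted p = 0.894).

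Further genes reported as imprinted in the mouse were compared in the same way. Of 28 listed, 15 were tested on the A array (5 higher, 10 lower, median -0.10) and 7 on the B array (5 higher, 2 lower, median 0.09). By limma 0 were called and 0 had an unadjusted p under 0.05. They included Kcnq1ot1, the noncoding RNA that silences the cluster of Cdkn1c, at 0.20 ± 0.12 on the B array. Airn, the noncoding RNA across Igf2r, gave 0.12 ± 0.16 and 0.08 ± 0.16, and Cd81, a tetraspanin gene, -0.08 ± 0.10. Pon2, which lies in the cluster of Asb4, gave -0.21 ± 0.19 on A and 0.48 ± 0.36 on B. Dcn had the widest difference of this list, -0.78 ± 0.43 on B with signals of 41.4 to 220, and gave -0.14 ± 0.24 on A. The limbs did not overlap for Mcts2 alone (0.192 ± 0.125 on A), 1 of 15 tested there, against 11% of all tested A array probe sets.

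Several cell types are mixed in these samples, so fewer cells of a type and less RNA per cell cannot be told apart. The endothelial markers, a cell type in which Asb4 is known, were not higher as a list. Of 6, all tested on the A array, 2 were higher and 4 lower in hindlimb, and their summed signal was 2023 to 2101 in forelimb and 1859 to 1943 in hindlimb. Other marker lists had summed A array signals that also parted the limbs. Erythroid genes (4 of 5 tested, 4 higher) had 28000 to 30750 in forelimb and 31420 to 34870 in hindlimb, muscle genes (7 of 10 tested, 7 lower) 1506 to 2037 and 1232 to 1464, ectoderm genes (6 of 6, 4 lower) 3625 to 4826 and 2861 to 3420, and macrophage genes (4 of 4, 2 lower) 1200 to 1343 and 1119 to 1169. Cartilage genes (5 of 6, 4 lower) had 8578 to 10010 and 7262 to 9556, and nerve and Schwann cell genes (4 of 6, 3 higher) 800 to 851.5 and 670.9 to 882.4, with overlapping sums. Single genes of both lists did part the limbs, as did 11% of all tested A array probe sets. Of the cartilage genes 3 did, all lower (Col2a1 -0.61, Acan -0.72 and Matn4 -0.79), while the brightest, Col9a1, was higher (0.19) with overlapping limbs. Of the nerve and Schwann cell genes 2 did, Ngfr lower (-0.72) and Nefm higher (0.72). RNA integrity was read from the Gapdh control probe sets at both ends of the transcript. Their log2 ratio (3' end over 5' end) was -0.239 to -0.078 in forelimb and -0.299 to -0.263 in hindlimb on the A array (exact two-sided permutation p = 0.1, the smallest that 3 against 3 samples allow). On the B array, which carries Zdbf2, it overlapped (exact p = 0.8). The same ratio of the b-Actin controls overlapped between the limbs on both designs, with 0.118 to 0.261 in forelimb and 0.222 to 0.27 in hindlimb on A (exact p = 0.3) and 0.238 to 0.313 and 0.208 to 0.32 on B (exact p = 0.9). The part of these in the differences of Asb4 and Zdbf2 was not tested.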

How the data were processed

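Each deposited file lists 1 intensity per probe set, a MAS5.0 signal that is not on a log scale. The labels' protocols name MAS5.0 for all arrays other than the A array of forelimb 11. In the deposited values the 2% trimmed mean was 350.1 on A arrays and 70 on B arrays without exception, so a common target had been applied to each design. Neither detection calls nor scanner settings were used here. Signals were multiplied by 1.43 (A) or 7.14 (B) to reach a trimmed mean of 500. That factor stretches dim B signals, and no level was compared across designs. Affymetrix controls (64 probe sets per design) were dropped. Gene symbols are those of the platform annotation, updated by gene identifier from the RefSeq gene table of GRCm38.p6, which held 20364 of 20393 single-gene probe sets on A and 14499 of 14674 on B.

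The limbs were compared separately on A and B with limma version 3.58.1 under R version 4.3.3, using lmFit, then eBayes with an intensity trend, two-sided p-values and Benjamini-Hochberg adjustment. The procedure was tested on simulated data with normal noise whose spread depended on signal level alone. That setting is simpler than these arrays, so it checks the code and not the power to find differences here. Plots used Python 3.11.15 and matplotlib 3.10.9. Sample values are printed for imprinted probe sets whose unadjusted p was under 0.05 or whose limbs did not overlap. For genes in the clusters of Igf2, Dlk1, Sgce, Mest, Cdkn1c, Peg3 and Ndn they are printed for the brightest tested probe set. That probe set is on A where A was tested, and Ppp1r9a and Ube3a were left out. Other probe sets are given by range or difference, and any further sample values were chosen after they were seen. In the other gene lists a gene is represented by its brightest tested probe set. Members and lists were chosen with earlier results of these data known. The alternatives changed the pseudocount (1 or 100), the filter (none, or 200), the scaling (quantile, or signals as the authors deposited them), the variance model (no trend, or array weights), the adjustment (both designs at once) and the probe sets (1 per gene), added a block for consecutive sample numbers, or dropped 1 sample at a time while keeping the filter.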

Additional observations from a re-analysis of the deposited data

How the results depend on the processing

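Of the 69 tested imprinted probe sets, 38 kept the sign of their difference under every alternative run. Asb4, Zdbf2, Peg3, Cdkn1c, Igf2, Plagl1, Magel2, Nnat and Phlda2 did so on all of their tested probe sets. The other 31 probe sets turned sign at least once. The only imprinted probe set past the threshold under any alternative was that of Asb4 without hindlimb 12. Over all probe sets of the A array, limma calls went from 5 to 14 with array weights, 1 without the filter, 8 with a replicate block of consecutive sample numbers and 3 to 9 with a sample left out. On the B array they went from 2 to 1 without the filter, 0 without the trend (949 at an unadjusted p under 0.05 with it, 871 without), 4 with the block and 1 to 4 with a sample left out. The labels do not pair the limbs. Deviations of consecutively numbered samples correlated by 0.076 to 0.208 on the A and 0.002 to 0.048 on the B array. The other pairs of a forelimb and a hindlimb sample gave -0.151 to 0.063 on A and -0.063 to 0.025 on B. Consecutive pairs thus lay above all other pairs on A, while on B the ranges overlapped. Whether consecutive numbers mark paired limbs was not tested, and the differences given above were fitted without such pairs. The median of maternally expressed genes on the A array was 0.054 with 1 probe set per gene and -0.127 to 0.015 with a sample left out, and on the B array -0.141 to 0.044. That of paternally expressed genes on the B array was -0.222 and -0.216 to -0.122. The cause of these shifts was not tested. The medians of all imprinted probe sets moved by less than the spread between samples under each alternative.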

Other observations

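Hindlimb 14 was the highest of the 3 hindlimb samples on 24 of the 45 tested imprinted probe sets of the A array (53.3%), where this held for 37.9% of all tested probe sets. On the B array it was the highest on 6 of 24 (25%, against 35.3%). Hindlimb 12 was the lowest hindlimb sample on 19 of 45 on the A array (42.2%, against 36.7%) and on 13 of 24 on the B array (54.2%, against 36.9%). Forelimb 11 was the highest forelimb sample on 19 of 45 (42.2%, against 35.8%) and 12 of 24 (50%, against 37.5%). Several of these probe sets belong to one gene, so the counts are descriptions of these samples.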
